A study of Mus musculus with 2 samples.

Results

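The ligands of the tumour necrosis factor (TNF) superfamily were examined in polyadenylated RNA from inflammation-experienced regulatory T-cells, the CD4 T cells that restrain immune responses under the control of the transcription factor Foxp3. The members were 10 genes of this family (Tnf, Lta, Ltb, Fasl, Cd40lg, Tnfsf8, Tnfsf10, Tnfsf11, Tnfsf12 and Tnfsf14), of 55536 annotated genes, and all 10 were matched by gene name in both libraries. Another 8 ligands of the superfamily were not members and are given apart. The cells came from 1 adult male mouse sample of 6 months, strain Foxp3CreERT2 x Rosa26YFP, in which Foxp3 drives a CreERT2 recombinase and the Rosa26 locus carries a YFP reporter; the labels describe primary cells of bone marrow hematopoietic origin. The single biological replicate was sequenced as 2 technical libraries with 15386113 and 13604480 gene counts in technical replicates 1 and 2. There was no other group, so levels are described and no effect of inflammation was measured, and how inflammation was brought about is not given in the sources used here.

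Ligands of this superfamily are mostly made as membrane proteins that assemble into trimers and can be released by proteases. Each engages receptors of the TNF receptor superfamily, which pass the signal on through TRAF adaptors or death domains. T cells use them to instruct other cells, for example B cells through CD40 ligand, lymphoid stroma through lymphotoxins and osteoclast precursors through RANK ligand, and to kill target cells through Fas ligand. Values below are TPM (transcripts per unit of all transcripts, summing to a fixed total in each library), a level scaled by transcript length that can be compared between genes, as the mean ± SD over the technical libraries (n = 2). The SD measures technical variation only. Unless stated otherwise, p-values set the difference between the 2 libraries against read sampling alone. Neither measures variation between animals.

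The label was checked against marker genes. All 6 T cell markers and all 6 regulatory T cell markers were at 1 TPM or more in both libraries, with median levels of 954.4 and 300.3 TPM, and Foxp3 stood at 22.1 and 17.9 TPM. Of 5 B cell, 6 monocyte and macrophage, 5 dendritic cell, 4 neutrophil, and 5 stromal and endothelial markers, 0 reached 1 TPM in both libraries. Of 7 NK and cytotoxic markers 2 did (Cd8a at 2.52 and 2.35 TPM, Cd8b1 at 11.4 and 11.0 TPM). In these bulk libraries fewer cells that express a gene and less RNA per cell cannot be told apart.

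Of the 10 ligand genes, 9 reached 1 TPM in both libraries, the threshold for detection here, where 46.7% of protein coding genes and 24.3% of all genes were. They fell into a high set of 4 and a low set of 5. Ltb, Tnfsf8, Lta and Cd40lg together made up 83.7% of the summed ligand TPM, which came to 365.9 and 413.7 TPM in technical replicates 1 and 2, the order in which pairs of values are given below. The median over the 10 ligands was 14.6 TPM, and over all detected protein coding genes 18.3 TPM.

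Ltb encodes lymphotoxin beta, the membrane anchor of the lymphotoxin heterotrimer that acts on the lymphotoxin beta receptor of stromal and myeloid cells. It stood at 83.6 and 139.9 TPM, from 1143 and 1695 estimated counts. Its mean of 111.7 ± 39.8 TPM was the highest of the ligands, but its SD was also the largest of the 10, the next being that of Cd40lg at 4.35 TPM. Tnfsf8 encodes CD30 ligand, a costimulatory ligand of activated lymphocytes, and stood at 92.0 and 91.6 TPM from 4294 and 3780 counts. Because Ltb lay below Tnfsf8 in technical replicate 1 and above it in technical replicate 2, the pair was not separated and the first place in the order is not resolved.

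Lta encodes lymphotoxin alpha, which is secreted as a homotrimer that binds the TNF receptors or joins lymphotoxin beta at the membrane. It stood at 70.95 and 65.0 TPM from 1176 and 952 counts. Cd40lg, on the X chromosome, encodes the ligand through which T cells license B cells and dendritic cells, and it stood at 51.9 and 58.0 TPM from 774 and 765 counts. Both libraries placed Tnfsf8 above Lta and Lta above Cd40lg, with no overlap of library values. Among 16288 protein coding genes with a read, Ltb lay at percentile 93.4 of the level, Tnfsf8 at 91.9, Lta at 88.7 and Cd40lg at 86.2.

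The low set began 3.46-fold below Cd40lg. Tnf, the inflammatory cytokine that names the family, stood at 15.6 and 16.2 TPM from 308 and 282 counts. Tnfsf11, which encodes RANK ligand, the osteoclast differentiation factor that also acts on medullary thymic epithelium and dendritic cells, stood at 14.7 and 12.0 TPM from 399 and 289 counts. Tnfsf10, which encodes the death ligand TRAIL, stood at 13.2 and 12.7 TPM from 762 and 632 counts. Tnf was above both of the others in each library, with 15.6 against 14.7 TPM as the nearest values.

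Fasl, the ligand of the death receptor Fas and a cytotoxic effector of T cells, stood at 14.2 and 11.65 TPM from 291 and 234 counts. Its mean of 12.9 TPM equalled that of Tnfsf10 within 0.005 TPM, so Tnfsf11, Tnfsf10 and Fasl could not be ordered. Tnfsf14, which encodes LIGHT, a ligand of the herpesvirus entry mediator and of the lymphotoxin beta receptor, was the lowest detected ligand at 9.89 and 6.59 TPM from 221 and 130 counts. Over the whole order, 6 of the 9 neighbouring pairs were separated in the sense that the library values did not overlap, and 41 of all 45 pairs were.

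**Figure D1:**
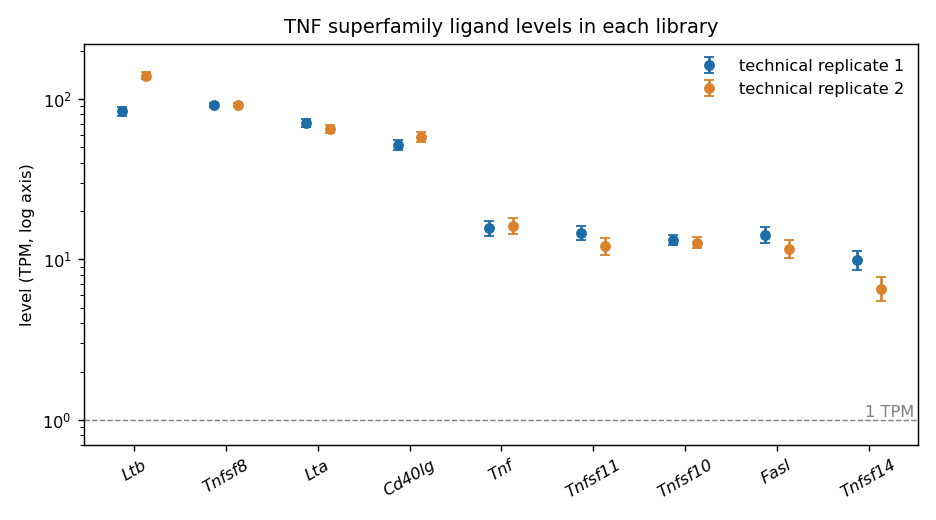
Level of each detected ligand gene in TPM on a log axis, by technical library, in the order of the mean; bars are exact Poisson 95% intervals of the estimated counts, which cover counting error only. Ltb, Tnfsf8, Lta and Cd40lg lie between 51.9 and 139.9 TPM and the other 5 genes between 6.59 and 16.2 TPM; Tnfsf12, with no count, is not drawn.

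Tnfsf12, which encodes TWEAK, a ligand with roles in tissue repair that is known from many cell types, had 0 counts in both libraries. A count of 3, the limit used here for a count of 0, would correspond to 0.290 and 0.328 TPM, and the deposited posterior mean, which is above 0 even without reads, was 0.31 and 0.34 TPM. The gene (chromosome 11, 69686250 to 69695849, minus strand, mm10) lies inside Tnfsfm13, an annotated gene on the same strand that spans both Tnfsf12 and Tnfsf13, so reads from shared exons could be assigned to either. Tnfsfm13 had 1 and 0 counts, Tnfsf13 0 and 0, and the antisense gene Tnfsf13os 0 and 0. The smaller gene table also listed Tnfsf12 at 0 in both libraries.

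Ltb, Tnf and Lta are neighbours in the genome. Ltb (35194439 to 35196320, plus strand), Tnf (35199381 to 35202007, minus strand) and Lta (35203165 to 35205351, minus strand) span 10913 bp of chromosome 17 in mm10, with gaps of 3060 and 1157 bp. The middle gene of the cluster had the lowest level. Ltb stood 5.36-fold above Tnf in technical replicate 1 and 8.66-fold in technical replicate 2, and Lta 4.55-fold and 4.02-fold, so both flanking genes exceeded Tnf in each library. Apart from the microRNA genes Mir6973a within Ltb and Mir6974 within Lta, with at most 5 counts, no annotated gene overlaps the 3 genes.

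**Figure D2:**
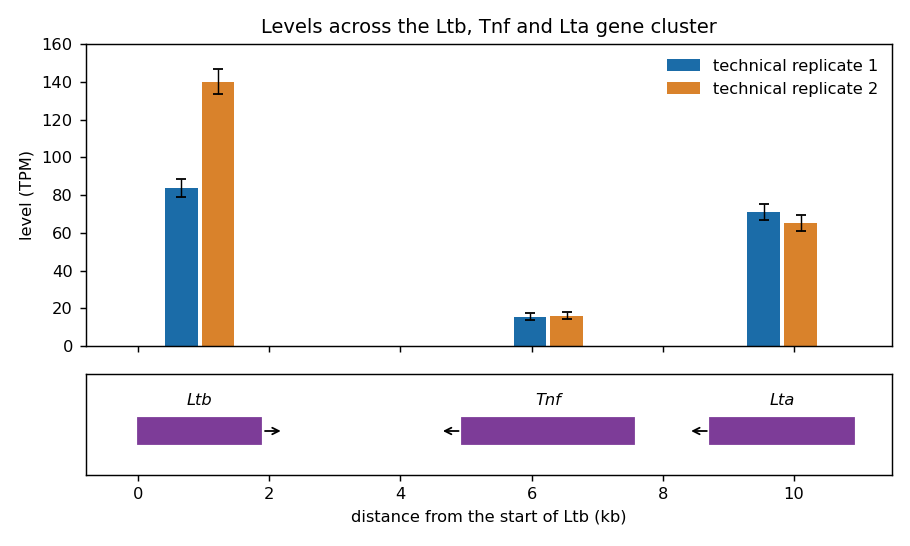
Levels in TPM of Ltb, Tnf and Lta in each technical library (bars from 0, with exact Poisson 95% intervals of the counts), placed over a map of the genes to scale in kb from the start of Ltb; arrows give the direction of transcription. Tnf, at 15.6 and 16.2 TPM, lies between Ltb at 83.6 and 139.9 TPM and Lta at 70.95 and 65.0 TPM.

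The transcripts of the cluster also differ in their 3′ untranslated regions. AU-rich elements, runs of ATTTA in the DNA letters, are the sites at which proteins of the Zfp36 family are known to bind Tnf mRNA and hasten its decay. The leading transcript Tnf-201 held 8 ATTTA pentamers and 5 copies of the nonamer TTATTTATT in 764 bases, with overlapping matches counted. Of 1163 detected genes with a 3′ untranslated region of 0.8 to 1.2 times that length, 0.172% held as many pentamers and 4.04% held the nonamer at all. These genes include Tnf itself, and each set of like length below likewise includes the member's own region. Lta-201 held 3 pentamers and 1 nonamer in 572 bases, where 10.4% of 1132 regions of like length held as many pentamers and 3.18% the nonamer. Ltb-201 held neither in 156 bases, where the median of 537 regions of like length was 0 pentamers and 1.86% held the nonamer. The 30 bases with the most pentamers are shown for the members that hold the nonamer, 5′ to 3′ on the transcribed strand and in mm10, with the nonamer matches in capitals (chr17:35199679-35199708, minus strand, for Tnf and chr17:35203404-35203433, minus strand, for Lta).
Tnf-201: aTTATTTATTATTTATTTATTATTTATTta
Lta-201: tatggagagaaaagttaagTTATTTATTta
In the Tnf window 4 of the 5 nonamers overlap one another in an unbroken run, while the Lta window holds a single match. Only the sense strand was searched, since the elements act in RNA.

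Of the other detected members, Tnfsf8-201 held 10 pentamers, but in a region of 2799 bases where the median was 5, and Tnfsf11-201 held 6 where the median was 2 and 6.94% of 1398 regions held as many. Tnfsf10-201 held 8 against a median of 7, Cd40lg-201 2 against 0, and Fasl-201 and Tnfsf14-201 1 each against 1. None of these held the nonamer. Whether any of these letters affected a level was not tested. A list of 10 mRNA decay and translation regulators, some of which act on AU-rich RNA and others, such as the Regnase and Roquin genes, on stem-loops, was detected in full at the RNA level, at a median of 33.4 TPM. Zfp36, which encodes tristetraprolin, stood at 110.0 and 103.3 TPM, its relatives Zfp36l1 at 91.3 and 105.1 TPM and Zfp36l2 at 40.8 and 45.3 TPM, and Tia1, a translational repressor that binds AU-rich RNA, at 74.5 and 78.8 TPM. Zc3h12a, which encodes the endonuclease Regnase-1, was the lowest of the list at 4.82 and 3.70 TPM.

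The receptors of the members were measured in the same libraries, in a list of 12 genes that also held Btla, whose product binds the herpesvirus entry mediator. Of these 12 genes, 9 were detected, at a list median of 5.70 TPM. The 3 below were Ltbr, Tnfrsf11a and Tnfrsf11b. Ltbr, the receptor of the lymphotoxin heterotrimer and of LIGHT, stood at 0.16 and 0 TPM from 4 and 0 counts, so Ltb was near the top of the ligands while its receptor gene was near 0 in the same libraries. Tnfsf11 likewise was detected while Tnfrsf11a, which encodes its signalling receptor RANK, stood at 0.02 and 0.16 TPM, and Tnfrsf11b, which encodes its decoy receptor osteoprotegerin, had 0 counts. Cd40lg, at 51.9 and 58.0 TPM, met Cd40 at 1.40 and 1.08 TPM from 17 and 19 counts.

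Other ligands were expressed beside their receptors. Fasl, at 14.2 and 11.65 TPM, had Fas at 92.7 and 88.6 TPM. Tnfsf14, at 9.89 and 6.59 TPM, had Tnfrsf14, the herpesvirus entry mediator gene, at 117.2 and 105.2 TPM, the highest level on the receptor list. Btla, an inhibitory receptor gene whose product also binds that mediator, stood at 47.1 and 40.6 TPM. For Tnf and Lta, the TNF receptor genes Tnfrsf1b stood at 62.5 and 74.9 TPM and Tnfrsf1a at 17.3 and 24.3 TPM. In both libraries Tnfrsf1b, the TNF receptor type that is known to favour regulatory T cells, was above Tnfrsf1a.

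Receptors of the remaining members were low but detected. Tnfsf8, at 92.0 and 91.6 TPM, had Tnfrsf8, which encodes CD30, at 7.77 and 6.77 TPM. Tnfsf10, at 13.2 and 12.7 TPM, had the TRAIL death receptor gene Tnfrsf10b at 2.36 and 2.34 TPM. Tnfsf12, with 0 counts, had its receptor gene Tnfrsf12a at 3.46 and 4.79 TPM. These are levels of RNA from a mixed pool of cells, and which cell held which transcript was not measured.

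**Figure D3:**
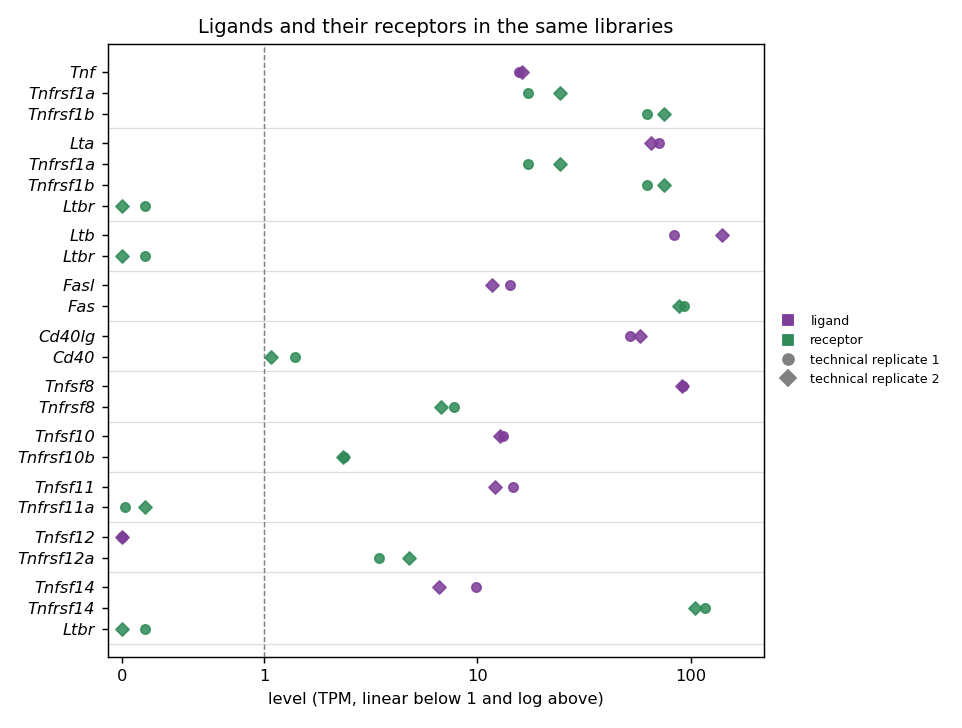
Levels in TPM of each ligand gene (purple) with its receptor genes (green) below it, with circles for technical replicate 1 and diamonds for technical replicate 2; the axis is linear below 1 TPM (dashed line) and logarithmic above. Ltbr and Tnfrsf11a lie near 0 below Ltb and Tnfsf11, whereas Fas and Tnfrsf14 lie to the right of Fasl and Tnfsf14.

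The remaining superfamily ligands formed a list of 8 genes, of which 2 were detected, with a list median of 0.538 TPM. Since the members were chosen with earlier results of these data known, the levels of the 2 lists are not compared. Tnfsf13b, which encodes the B cell survival factor BAFF, stood at 11.6 and 8.23 TPM, and Tnfsf9, which encodes the ligand of the costimulatory receptor 4-1BB, at 7.15 and 6.86 TPM. Tnfsf4 (OX40 ligand, 0.63 and 0.66 TPM), Cd70 (the CD27 ligand, 1.22 and 0.57 TPM) and Tnfsf15 (TL1A, 0.61 and 0.25 TPM) stayed below the threshold in at least 1 library. Tnfsf18, the GITR ligand gene, had 1 and 0 counts, and Tnfsf13 and Eda had 0.

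Proteases and helpers that release or degrade these ligands were on a list of 7 genes, of which 6 were detected at a list median of 37.6 TPM. Adam17, which encodes the main TNF sheddase, stood at 35.3 and 39.9 TPM, and Adam10, a protease that sheds Fas ligand among others, at 54.8 and 58.1 TPM. Frmd8, which stabilises the sheddase complex, stood at 44.8 and 62.8 TPM, and the intramembrane protease gene Sppl2a at 49.97 and 41.5 TPM. Of the iRhom genes, whose products carry the TNF sheddase to the surface, Rhbdf2 stood at 2.54 and 3.14 TPM and Rhbdf1 at 0 and 0.61 TPM.

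To see which ligand values depended on the library, each gene's rounded estimated counts were compared between technical replicate 1 and technical replicate 2 with a two-sided exact binomial test, adjusted by Benjamini-Hochberg over 17334 genes. Of the 9 ligands tested, 2 were called at 0.05, where 19.1% of all tested genes were called and 23.2% of those with 300 to 10000 summed counts, the depth of the ligands. Of these, 1 ligand was higher in technical replicate 1 (9.65% of all tested genes) and 1 in technical replicate 2 (9.47%), so the ligands' share lay near the background. The test assumes that only read sampling separates the libraries, and it compares 2 libraries and no conditions. Genes outside the members were called too. Among those named above, Tnfsf13b, Tnfrsf14 and Btla were higher in technical replicate 1. Tnfrsf1b, Frmd8, Zfp36l1 and Zfp36l2 were higher in technical replicate 2.

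Ltb had a count ratio of technical replicate 1 over technical replicate 2 of 0.596 after scaling (exact 95% interval 0.553 to 0.643, adjusted p = 2.22e-39 by the exact binomial test). All 3 annotated Ltb transcripts were lower in technical replicate 1 by TPM, with Ltb-201 at 76.0 and 129.0 TPM, Ltb-203 at 5.41 and 7.48 TPM and Ltb-202 at 2.10 and 3.38 TPM. On the log2(TPM + 1) scale the ratio was -0.74, and of the 8272 genes with 300 to 10000 summed counts, 0.423% differed as much in either direction. In the smaller gene table, where 6.58% of 11019 genes were called, Ltb was the only ligand called. It held 710 and 942 counts there, a scaled ratio of 0.687 with an adjusted p of 9.39e-11 in the same exact test. B cells also express Ltb; the summed level of the 5 B cell markers was 3.59 and 2.54 TPM, higher in technical replicate 1, where Ltb was lower.

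Tnfsf14 was called in the other direction, with a ratio of 1.50 (exact 95% interval 1.20 to 1.88, adjusted p = 0.00293 by the exact binomial test). This call was lost with the dispersion fitted by edgeR (ratio 1.50, adjusted p = 0.41) and in the smaller gene table (68 and 38 counts, ratio 1.63, adjusted p = 0.128), whereas Ltb was called in both, with an adjusted p of 0.0470 under the edgeR dispersion. The other 7 ligands were not called, with scaled ratios from 0.895 for Cd40lg to 1.22 for Tnfsf11 and adjusted p from 0.0536 to 0.946. Tnfsf11 was called with DESeq2 size factors (adjusted p = 0.0418). The median absolute log2 ratio was 0.16 for the ligands tested, 0.17 for all genes tested and 0.12 for genes with 300 to 10000 summed counts.

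**Figure D4:**
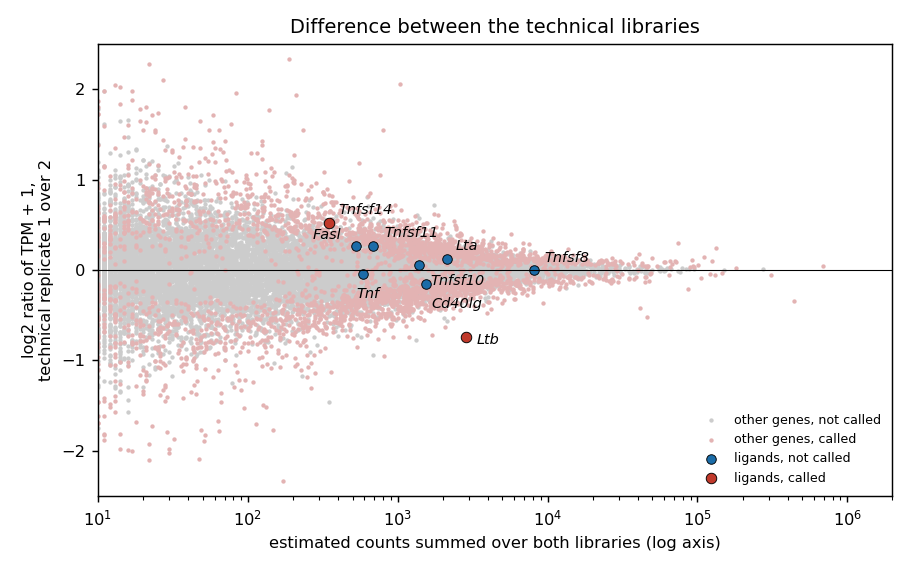
Log2 ratio of TPM + 1 in technical replicate 1 over technical replicate 2 for every tested gene, against its estimated counts summed over both libraries on a log axis; 33 genes beyond 2.5 on the log2 axis are not drawn. Ltb, at -0.74, lies at the lower edge of the genes of its depth, Tnfsf14 lies at 0.52, and the other ligands lie within 0.27 of 0.

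Transcript shares could be compared for the detected ligands with more than 1 annotated transcript, since Lta, Cd40lg, Tnfsf8, Tnfsf11 and Tnfsf14 have only 1. Of the 2 Tnf transcripts, Tnf-201 took 100% of the TPM in both libraries. Ltb-201 took 91.6% ± 0.86 of the Ltb TPM and Tnfsf10-201 91.1% ± 1.99 of the Tnfsf10 TPM, with Tnfsf10-202 at 7.48% and 10.3%. The share of Fasl-202, an annotated short transcript of 406 nt, was 15.9% in technical replicate 1 and 3.80% in technical replicate 2, from 10.1 and 1.73 estimated counts. Fasl-201 stood at 11.98 and 11.2 TPM, so most of the difference between the libraries in Fasl TPM lay in that short transcript.

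The deposit holds a second, smaller gene table of whole-number counts, and the ligands took different shares of it. Relative to its share in the larger table, Ltb took 2.47 times as much in the smaller table and Cd40lg 2.28 times, but Tnfsf8 only 0.775 times and Tnfsf10 0.565 times. Over 8878 genes with at least 50 summed counts in each table, this ratio rose with the coding part of the leading transcript, with a Spearman rho of 0.644 across genes, which are not independent replicates. Its median was 0.759 for 789 genes with less than 25% coding length and 2.79 for 2045 genes with more than 75%. The coding part was 79.4% of Ltb-201 and 62.6% of Cd40lg-201, against 18.9% of Tnfsf8-201 and 17.5% of Tnfsf10-201.

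Counts of the smaller table per kb of gene length gave another order, and the cause was not tested. Tnfsf8 stood at 198.6 and 189.7 counts per kb, below Ltb (617.4 and 817.3), Cd40lg (341.6 and 320.0) and Lta (326.1 and 284.9). Per kb of coding length, a scale chosen after the data were seen, Tnfsf8 stood at 1050 and 1003 counts, Ltb at 770.9 and 1023, Lta at 740.6 and 647.0 and Cd40lg at 545.3 and 510.9. Tnf followed at 169.5 and 124.3 counts per kb. On this scale, as in TPM, the same 4 ligands lay above the other 5, and Tnfsf8 and Ltb overlapped. Tnfsf14, at 94.4 and 52.8 counts per kb, was the lowest of those with counts but overlapped Tnfsf11 at 94.6 and 62.0. Per kb of gene length Tnfsf10 was the lowest of those with counts, at 21.1 and 19.0, with Tnfsf14 at 36.8 and 20.6.

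**Figure D5:**
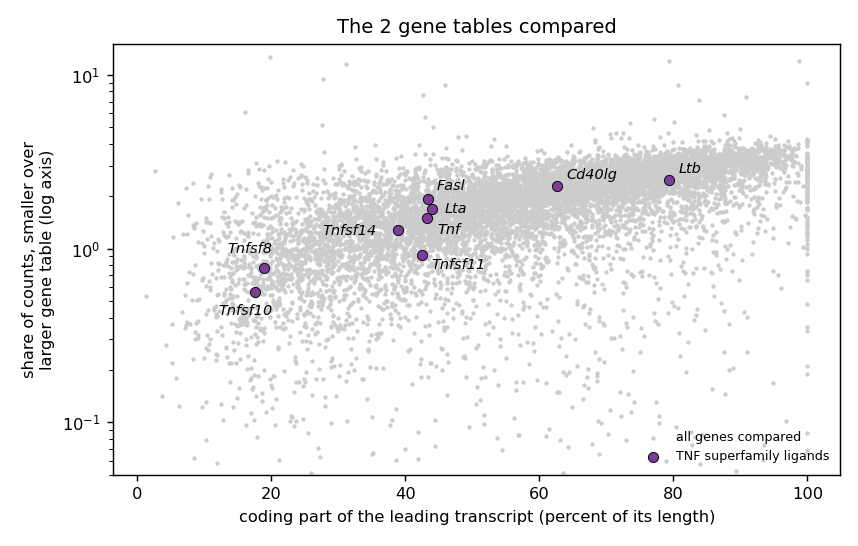
Share of counts in the smaller gene table over that in the larger one (log axis), libraries summed, against the coding part of each gene's leading protein coding transcript in percent of its length; 60 genes outside 0.05 to 15 are not drawn. The 9 ligands with counts run with the other genes, from Tnfsf10 at 0.565 with 17.5% coding length to Ltb at 2.47 with 79.4%.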

How the data were processed

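The authors deposited, per the file headers, a gene table and a transcript table per library with estimated counts, TPM, FPKM and posterior mean TPM, and the percent of each gene's TPM per transcript, on mm10 with GENCODE M21. A smaller gene table of whole-number counts was, per the text deposited with each library, made from genome alignments with GENCODE M4; it held 3581589 and 3271045 counts. Aligner, quantifier, versions and strand setting are not given in the sources used here. Entries without a gene name (0.174% and 0.158% of estimated counts) were left out. Gene names, coordinates and transcript sequences came from GENCODE M21.

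Estimated counts were rounded. With 1 biological replicate the quasi-likelihood test has no residual degrees of freedom. An exact binomial test per gene (SciPy 1.17.1) with at least 10 summed counts was therefore used, scaled by TMM (edgeR 4.0.16). Benjamini-Hochberg adjustment was over all genes at 0.05. The test was run on simulated counts that held read sampling only, as it assumes. That simulation cannot show how the test behaves where libraries vary beyond read sampling. DESeq2 1.42.0 size factors, edgeR's common dispersion, other thresholds and the smaller table were alternatives. Detection meant 1 TPM in both libraries; neighbours in the order were called separated where library values did not overlap. Intervals are exact, at 95%, and, like the limit of 3 counts for a 0, cover counting error only. Leading transcripts were the protein coding ones of highest mean TPM. All members were named. Of other lists, the 6 highest genes, those below 1 TPM and those called could be named. Cd40, Tnfrsf10b, Tnfrsf12a and Zc3h12a were named outside this rule. The members and lists were chosen with earlier results of these data known. One further marker list is not reported here.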

Additional observations from a re-analysis of the deposited data

How the results depend on the processing

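The count of 9 detected ligands held at 0.5 TPM, at 5 TPM, by posterior mean TPM and without either technical replicate (9 to 9). Genes called between the libraries numbered 3314, between 2799 and 3374 under total counts, DESeq2 size factors and no low-count filter. With no filter the 2799 called were 9.55% of 29305 genes tested. The number was 312 (1.8% of 17334) with the edgeR common dispersion and 725 (6.58% of 11019) in the smaller table. Ligands called went from 2 to 1 (Ltb) under both of these; the dispersion was fitted to the same libraries, so fewer calls follow from its construction. With DESeq2 size factors 3 ligands were called, where 19.5% of 17334 genes were. Over these settings the Ltb ratio ranged from 0.596 to 0.687, with an adjusted p from 2.22e-39 to 0.0470. In the smaller table the ratios of Tnf (1.24, against 0.966 in the larger table) and Tnfsf8 (0.955, against 1.00) turned round, neither called in either table; the cause was not tested. Of the 10 ligands, 6 to 8 kept their place in the order without a technical replicate, 7 by posterior mean TPM and 10 by FPKM, but 3 by smaller-table counts per kb of gene length and 6 per kb of coding length, an alternative added after the data were seen. Ltb led in technical replicate 2 alone and Tnfsf8 in technical replicate 1 alone. No paired analysis was possible because there is 1 group. Depth limits Tnfsf14, with 351 counts in all, more than Tnfsf8, with 8074.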
